A study of Bos taurus with 90 samples.

Results

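The miR-181 family of dairy cattle was followed through 5 tissues and 3 forage diets. Its 4 mature miRNAs, miR-181a, miR-181b, miR-181c and miR-181d, were taken by name, and all 4 were found among the 388 miRNAs listed in any tissue and among the 289 listed in all 5. Small RNA had been sequenced from 18 mid-lactation Chinese Holstein cows, 6 on each of 3 diets named for their forage (alfalfa hay, corn stover or rice straw), with no gene deletion, transgene or drug in any group. Each cow gave liver, mammary gland, jejunum, duodenum and rumen epithelium (called rumen here), which makes 90 libraries in 15 groups of 6. Because the tissues came from the same 18 cows, libraries of different tissues are not independent animals, and the labels do not say which libraries share a cow. Levels are in CPM, the reads of a miRNA scaled to a common total of reads mapped to all annotated miRNAs, so they are relative levels within a library.

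A miRNA is a short RNA that guides a protein complex to mRNAs and lowers their output, and the choice of targets rests mostly on its seed, the stretch near its 5′ end. The members of the miR-181 family share a seed and differ in few bases elsewhere. In mammals miR-181a is known from lymphocytes, where it sets the sensitivity of T cells to antigen, and the family is also studied in muscle, vessel wall and liver. The members are encoded in clusters. In the RefSeq annotation of cattle (ARS-UCD2.0) 6 family genes formed 3 pairs that were next to each other among the miRNA genes: MIR181A-2 with MIR181B-2, MIR181B-1 with MIR181A-1, and MIR181D with MIR181C. Mature miR-181a and miR-181b thus have 2 gene copies each, whose reads the files do not separate. The alignment used by the authors also let a read map to several precursors with mismatches, so reads could have been shared among these similar sequences, and the separate values of the members are uncertain to that extent.

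The libraries held between 937556 and 15621501 mapped reads, with a median of 5778304.5. Behind the values of single libraries stood 5502 to 247899 reads for miR-181a, 256 to 9901 for miR-181b, 34 to 6717 for miR-181c and 6 to 640 for miR-181d. The hepatocyte miRNA miR-122 followed the labels: it averaged 11021 CPM in liver, against 7.88 CPM in mammary gland, and was not listed in the other 3 tissues. A summed list of 3 intestinal epithelial miRNAs (miR-192, miR-194 and miR-215) reached 321899 CPM in duodenum and 231841 CPM in jejunum, and 3259 CPM in rumen. All 3 were also higher in liver than in rumen, by a median of 5.51 on the log2 scale, so the list is not particular to intestine. Liver was lower in all 3 than duodenum and jejunum, by medians of -0.90 and -0.47. In mammary gland 4 libraries stood apart from the rest of their tissue. Their median correlation with the other mammary gland libraries, over the miRNAs outside the family, was between 0.926 and 0.954, and the lowest of the other 86 libraries had 0.960 with its own tissue. The 4 were replicates 1, 4 and 5 on rice straw and replicate 1 on alfalfa hay, 3 of them the shallowest libraries of the series. Replicates 3 and 2 on rice straw came next in mammary gland, at 0.964 and 0.965, before replicate 5 on corn stover at 0.981. The cut at 4 was set, not tested. Many results that touch mammary gland are given with and without the 4. Shares, ranks and correlations within the tissue are given with them only.

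miR-181a was the dominant member everywhere. It made up 94.0% ± 0.779 (SD, n = 18) of the summed family CPM in mammary gland, 93.5% ± 1.0 in liver, 92.8% ± 0.540 in jejunum, 92.3% ± 0.801 in duodenum and 90.9% ± 1.18 in rumen. By mean CPM it ranked 12th of 328 listed miRNAs in mammary gland, 14th of 337 in jejunum, 17th of 338 in duodenum, 20th of 330 in liver and 24th of 340 in rumen. The whole family took 2.17% of the mapped reads in mammary gland, 1.61% in jejunum, 1.25% in duodenum, 0.820% in liver and 0.773% in rumen. The other members were much scarcer: miR-181b ranked between 66th and 112th, miR-181c between 88th and 126th, and miR-181d between 164th and 205th.

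The members fell into 2 tissue patterns. miR-181a and miR-181b were highest in mammary gland and jejunum and low in rumen and liver. miR-181c and miR-181d were high in jejunum, duodenum and rumen, lower in mammary gland and lowest in liver. These pairs are also the pairs that neighbour each other in the annotation. Ranges that do not overlap are given below as description, without the share of all miRNAs that do the same.

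miR-181a ran from 5479 to 9241 CPM in rumen, with a median of 6945 CPM. In liver it ran from 4212 to 13002 CPM, with a median of 6833 CPM. In duodenum the lowest library had 7851 CPM, the median 11036 CPM and the highest 17102 CPM. Rumen and liver overlapped, with 29 of their 36 libraries in the shared range, and 12 of the 18 liver libraries lay under every duodenum library. In jejunum miR-181a lay between 12006 and 18606 CPM with a median of 14635 CPM, above all 18 rumen libraries. Mammary gland was the most variable tissue, with 5868 CPM in its lowest library, 18016 CPM at the median and 50560 CPM in its highest. Both ends of that range were libraries that stood apart: replicates 4 and 5 on rice straw had 50560 and 34228 CPM, and replicate 1 on alfalfa hay and replicate 1 on rice straw had 5868 and 6505 CPM. Without the 4 the mammary gland mean moved from 20411 ± 10390 CPM (SD, n = 18) to 19302 ± 4908 CPM (SD, n = 14).

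miR-181b, which differs from miR-181a in few bases, followed the same order at a lower level, with mean ratios between 19.6 and 26.3. It had a mean of 292 ± 39.2 CPM (SD, n = 18) in rumen, 396 ± 109 CPM in liver, 441 ± 104 CPM in duodenum, 631 ± 107 CPM in jejunum and 1087 ± 765 CPM in mammary gland. Every jejunum library, from 508 to 850 CPM, lay above every rumen library, from 198 to 364 CPM. In mammary gland miR-181b reached 2876 and 3044 CPM in replicates 4 and 5 on rice straw, and the mean without the 4 libraries that stood apart was 934 ± 314 CPM (SD, n = 14).

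miR-181c was scarce in liver. It lay between 65.9 and 161 CPM there, with a median of 100.2 CPM. In rumen it lay between 223 and 476 CPM with a median of 344 CPM, in duodenum between 390 and 639 CPM with a median of 442 CPM, and in jejunum between 362 and 718 CPM with a median of 454 CPM. No liver library reached the lowest library of these 3 tissues. Mammary gland was in between, from 36.3 to 394 CPM with a median of 242 CPM, and its lowest values, 36.3 and 52.3 CPM, belonged to 2 of the libraries that stood apart. Its mean rose from 225 ± 99.8 CPM (SD, n = 18) to 262 ± 70.8 CPM (SD, n = 14) without the 4.

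miR-181d, the scarcest member, repeated this split on a smaller scale. It averaged 48.2 ± 8.77 CPM (SD, n = 18) in jejunum, 47.2 ± 6.75 CPM in rumen, 39.1 ± 5.20 CPM in duodenum, 25.5 ± 11.4 CPM in mammary gland and 13.8 ± 3.83 CPM in liver. The highest liver library, at 22.9 CPM, lay under the lowest library of rumen (34.9 CPM), duodenum (31.4 CPM) and jejunum (35.5 CPM). Mammary gland overlapped all 4 other tissues, from 6.40 to 53.5 CPM, with a mean of 27.0 ± 10.5 CPM (SD, n = 14) without the 4 libraries that stood apart.

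**Figure D1:**
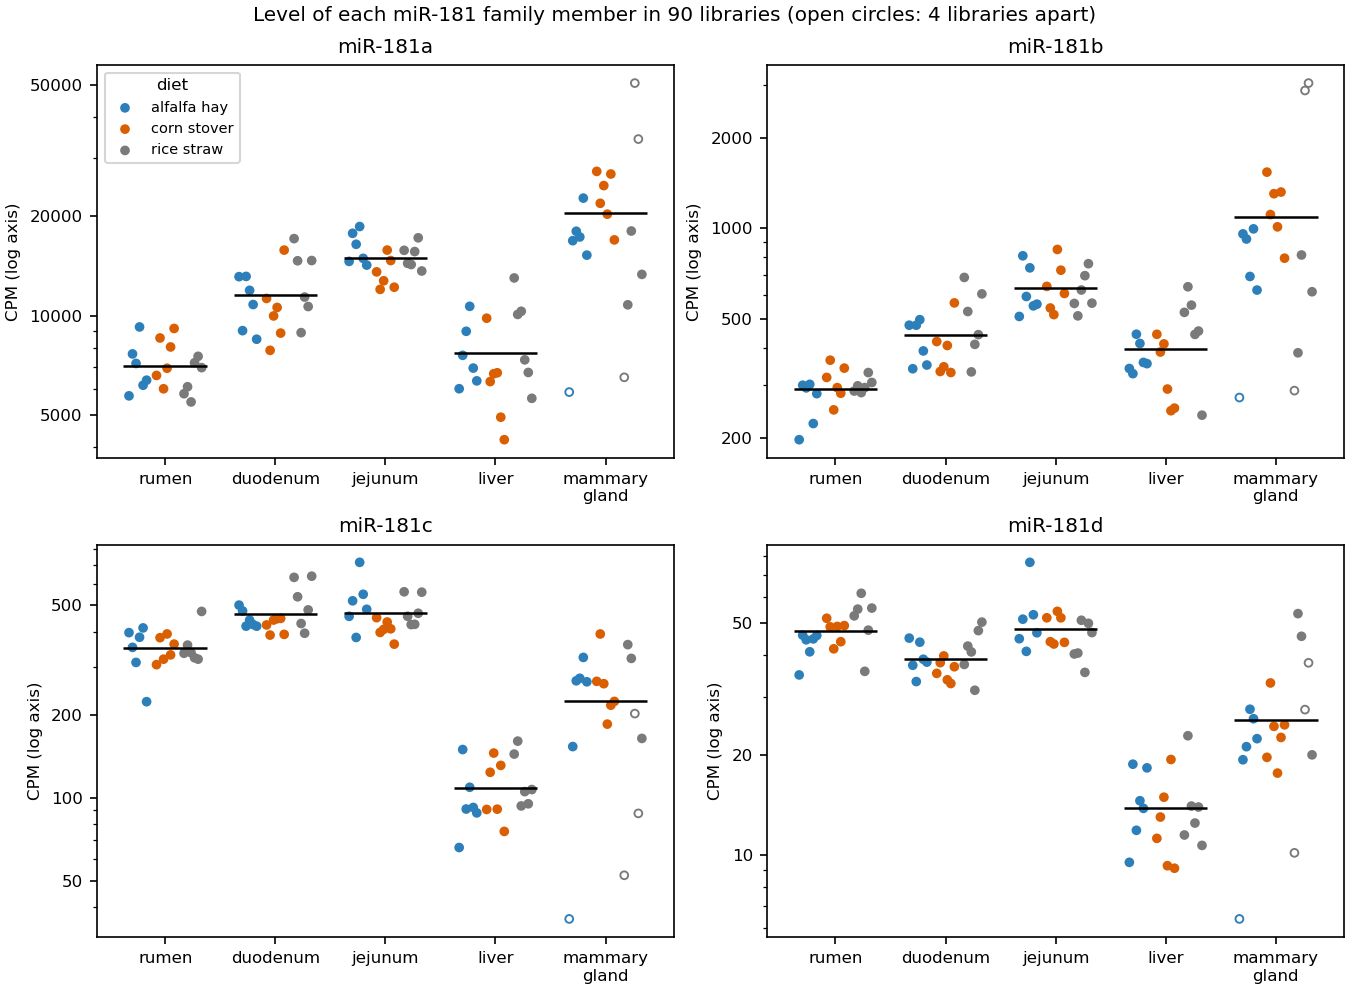
CPM of each member (vertical log axis, a separate scale per panel) in every library, by tissue and coloured by diet; black lines are means over 18 libraries and open circles are the 4 mammary gland libraries that stood apart. miR-181a and miR-181b have their highest means in mammary gland (20411 and 1087 CPM), while miR-181c and miR-181d have their lowest means in liver (109 and 13.8 CPM), under every library of rumen, duodenum and jejunum.

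The tissues were compared in pairs with limma on log2(CPM + 1), a test that borrows information on the spread across all miRNAs, in a fit of all 90 libraries with 289 miRNAs. A member was called when its adjusted p (Benjamini-Hochberg over the 289) was under 0.05. Most miRNAs differed between most tissues, and the share called is given with each pair as the background against which the members are to be read. In bulk tissue, fewer cells of a type and less of the miRNA per cell cannot be told apart.

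Against rumen, miR-181a, miR-181b and miR-181c were higher in duodenum, by 0.70 (SE 0.14), 0.57 (SE 0.16) and 0.40 (SE 0.16) on the log2 scale (adjusted p = 7.9e-06, 0.0013 and 0.0195). miR-181d differed by -0.26 (SE 0.13) and was not called (adjusted p = 0.0587). It was called with a pseudocount of 5 CPM (adjusted p = 0.0377), with edgeR (adjusted p = 0.0401) and without the 4 libraries that stood apart (adjusted p = 0.0105). It was not called with upper-quartile or TMM scaling, where the log2 differences were -0.08 and 0.0030. Of all miRNAs 72.7% were called in this pair. In jejunum the same 3 members were above rumen, miR-181a by 1.09 (SE 0.14), miR-181b by 1.10 (SE 0.16) and miR-181c by 0.42 (SE 0.16), against a background of 75.8%. The level of miR-181d in jejunum and rumen differed by 0.02 (SE 0.13, adjusted p = 0.89).

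Liver against rumen separated the pairs. miR-181c and miR-181d were lower in liver by -1.71 (SE 0.16) and -1.73 (SE 0.13). Their mean CPM was 3.23 and 3.41 times higher in rumen. miR-181b was higher in liver by 0.40 (SE 0.16, adjusted p = 0.0203), and miR-181a differed by 0.09 (SE 0.14, adjusted p = 0.57). The background was 84.4%. Against duodenum, with 82.7% of all miRNAs called, liver was lower in miR-181c by -2.11 (SE 0.16), in miR-181d by -1.47 (SE 0.13) and in miR-181a by -0.61 (SE 0.14), while miR-181b differed by -0.17 (SE 0.16, adjusted p = 0.32). Against jejunum (84.8% called) all 4 members were lower in liver, miR-181a by -1.01, miR-181b by -0.70, miR-181c by -2.12 and miR-181d by -1.75.

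Mammary gland had the 2 pairs on opposite sides of rumen. miR-181a was higher by 1.38 (SE 0.14) and miR-181b by 1.62 (SE 0.16), while miR-181c was lower by -0.84 (SE 0.16) and miR-181d by -0.98 (SE 0.13), all 4 called against a background of 84.8%. Without the 4 libraries that stood apart these differences were 1.35, 1.5, -0.44 and -0.77, and all 4 were still called. The same split held against duodenum (82.7% called), where miR-181a and miR-181b were higher by 0.68 and 1.04 and miR-181c and miR-181d lower by -1.24 and -0.72. Against jejunum, with 81.3% called, miR-181b was higher by 0.51 (SE 0.16, adjusted p = 0.0035), miR-181c and miR-181d were lower by -1.25 and -1.01, and miR-181a, at 0.29 (SE 0.14), just missed the threshold (adjusted p = 0.0535). Leaving out the 4 libraries that stood apart, the difference of miR-181a between these tissues was 0.26 (adjusted p = 0.0194). Against liver all 4 members were higher in mammary gland, by 1.29, 1.22, 0.87 and 0.75 in the order a to d, in a pair with 70.2% of all miRNAs called. The differences from liver without those 4 libraries were 1.27, 1.10, 1.26 and 0.96, and those from duodenum were 0.65, 0.93, -0.85 and -0.51, all called.

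In descending order the mean of miR-181a ran mammary gland, jejunum, duodenum, liver, rumen, with mammary gland and jejunum, and liver and rumen, not separated by the test of all 90 libraries and jejunum and duodenum close to its threshold (adjusted p = 0.0538). miR-181b had the same order, and its duodenum and liver were not separated. For miR-181c the order was jejunum, duodenum, rumen, mammary gland, liver, and jejunum and duodenum were not separated. The order of miR-181d was jejunum, rumen, duodenum, mammary gland, liver, and the test of all 90 libraries separated none of the first 3 from each other (jejunum and duodenum, adjusted p = 0.146).

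Marker miRNAs of cell types differed between these tissues as well. The 8 leukocyte miRNAs summed to 31719 CPM in jejunum and 30713 CPM in duodenum, against 9279 CPM in rumen, 8230 CPM in liver and 6014 CPM in mammary gland, where miR-181a was highest. The 2 smooth muscle miRNAs, miR-143 and miR-145, summed to 213239 CPM in jejunum, 176668 CPM in rumen, 163096 CPM in duodenum, 147398 CPM in mammary gland and 127209 CPM in liver. Most of each sum was miR-143, as miR-145 averaged 2296 CPM in rumen and 586 CPM in liver. The sum was high in every tissue, so it does not set the samples labelled as rumen epithelium apart. The part of these markers in the tissue differences of the family was not tested.

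CPM compares shares of a library, and a few abundant miRNAs can move the shares of all others. The median difference of all 289 miRNAs between liver and rumen was -0.47 on the log2 scale in CPM, 0.21 after scaling by the upper quartile and -0.06 after trimmed-mean (TMM) scaling. Relative to that median, miR-181a was 0.55 higher in liver than rumen, miR-181b 0.87 higher, miR-181c -1.24 and miR-181d -1.26. With upper-quartile or TMM scaling the rise of miR-181a from rumen to liver was called (0.80 and 0.53), and the difference of miR-181b between liver and duodenum, -0.17 in CPM, was 0.36 and called with upper-quartile scaling and -0.0041 with TMM scaling. Upper-quartile scaling also ended the calls of miR-181a between liver and duodenum (-0.08) and of miR-181b between liver and jejunum (-0.16). The difference of miR-181a between mammary gland and jejunum, 0.29 in CPM, was called with upper-quartile (0.44, adjusted p = 0.0018) and TMM scaling (0.28, adjusted p = 0.028), and that of miR-181d between jejunum and rumen, 0.02 in CPM, with TMM scaling (0.24, adjusted p = 0.037). The lower level of miR-181c and miR-181d in liver than in rumen, duodenum and jejunum was called with all 3 scalings.

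**Figure D2:**
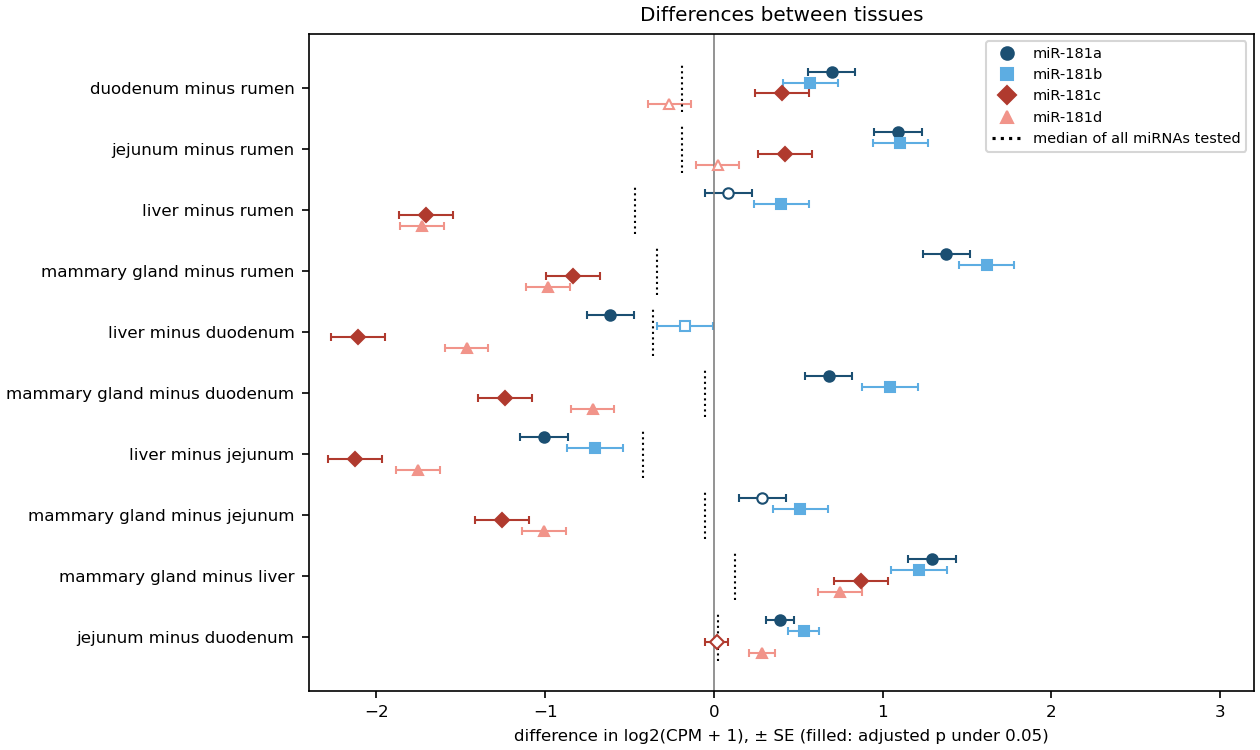
Difference in log2(CPM + 1) between tissues for each member (horizontal axis, points ± SE), with the name of each row giving the subtraction; filled points have an adjusted p under 0.05 and the dotted line marks the median of all miRNAs tested in that comparison. miR-181c and miR-181d lie left of the median line in every comparison of liver or mammary gland with rumen or intestine, and miR-181a and miR-181b lie right of it in every comparison of mammary gland.

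A ratio of members within a library does not depend on how the library is scaled. The ratio of miR-181a to miR-181b was 26.3 ± 1.67 (SD, n = 18) in duodenum, 24.2 ± 3.21 in rumen, 24.0 ± 3.1 in jejunum, 20.7 ± 3.61 in mammary gland and 19.6 ± 3.41 in liver. The ratio of miR-181c to miR-181d was 11.9 ± 1.68 in duodenum, 9.88 ± 1.58 in jejunum, 9.02 ± 2.99 in mammary gland, 8.08 ± 1.76 in liver and 7.58 ± 1.58 in rumen. Without the 4 libraries that stood apart these 2 ratios were 21.4 ± 2.93 and 10.1 ± 2.16 in mammary gland (SD, n = 14). Both means of a neighbouring pair covered a smaller range of folds over the tissues than the ratios across the pairs. The ratio of miR-181a to miR-181c, across the pairs, went from 20.4 ± 4.18 in rumen through 25.0 ± 5.16 in duodenum and 32.2 ± 4.55 in jejunum to 73.0 ± 22.2 in liver and 113 ± 85.4 in mammary gland. All 18 liver and all 18 mammary gland libraries were above the rumen libraries in this ratio. How many of all ratios to miR-181c did the same is not given. Without the 4 libraries that stood apart, in which miR-181a over miR-181c was 124 to 390, its mammary gland mean was 78.5 ± 26.5 (SD, n = 14). miR-181b was scarcer than miR-181c in rumen, with a mean ratio of 0.852 ± 0.181, and more abundant in liver, with a ratio of 3.78 ± 1.11.

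The ratios were tested by fitting the log2 ratio of each miRNA to a reference member. With miR-181a as the reference, miR-181c and miR-181d were lower in liver than in rumen by -1.79 (SE 0.16) and -1.81 (SE 0.15), and miR-181b was higher by 0.32 (SE 0.08, adjusted p = 0.00038), in a comparison with 82.3% of all ratios called. Mammary gland against rumen gave -2.21 for miR-181c, -2.36 for miR-181d and 0.24 for miR-181b (adjusted p = 0.0061), with 86.1% called. Without the 4 libraries that stood apart the ratio of miR-181b to miR-181a differed by 0.15 between these tissues and was not called (adjusted p = 0.060). With miR-181c as the reference, the ratio of miR-181d did not pass the test between liver and rumen (-0.02, SE 0.11, adjusted p = 0.86, background 84.7%) or between mammary gland and rumen (-0.15, SE 0.11, adjusted p = 0.23, background 80.2%). The latter was -0.33 and called without the 4 libraries (adjusted p = 0.0028). No ratio test is given here for duodenum against rumen, where miR-181c was higher by 0.40 and miR-181d differed by -0.26 in CPM. The ratio of this pair is therefore not shown to be constant over the tissues.

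**Figure D3:**
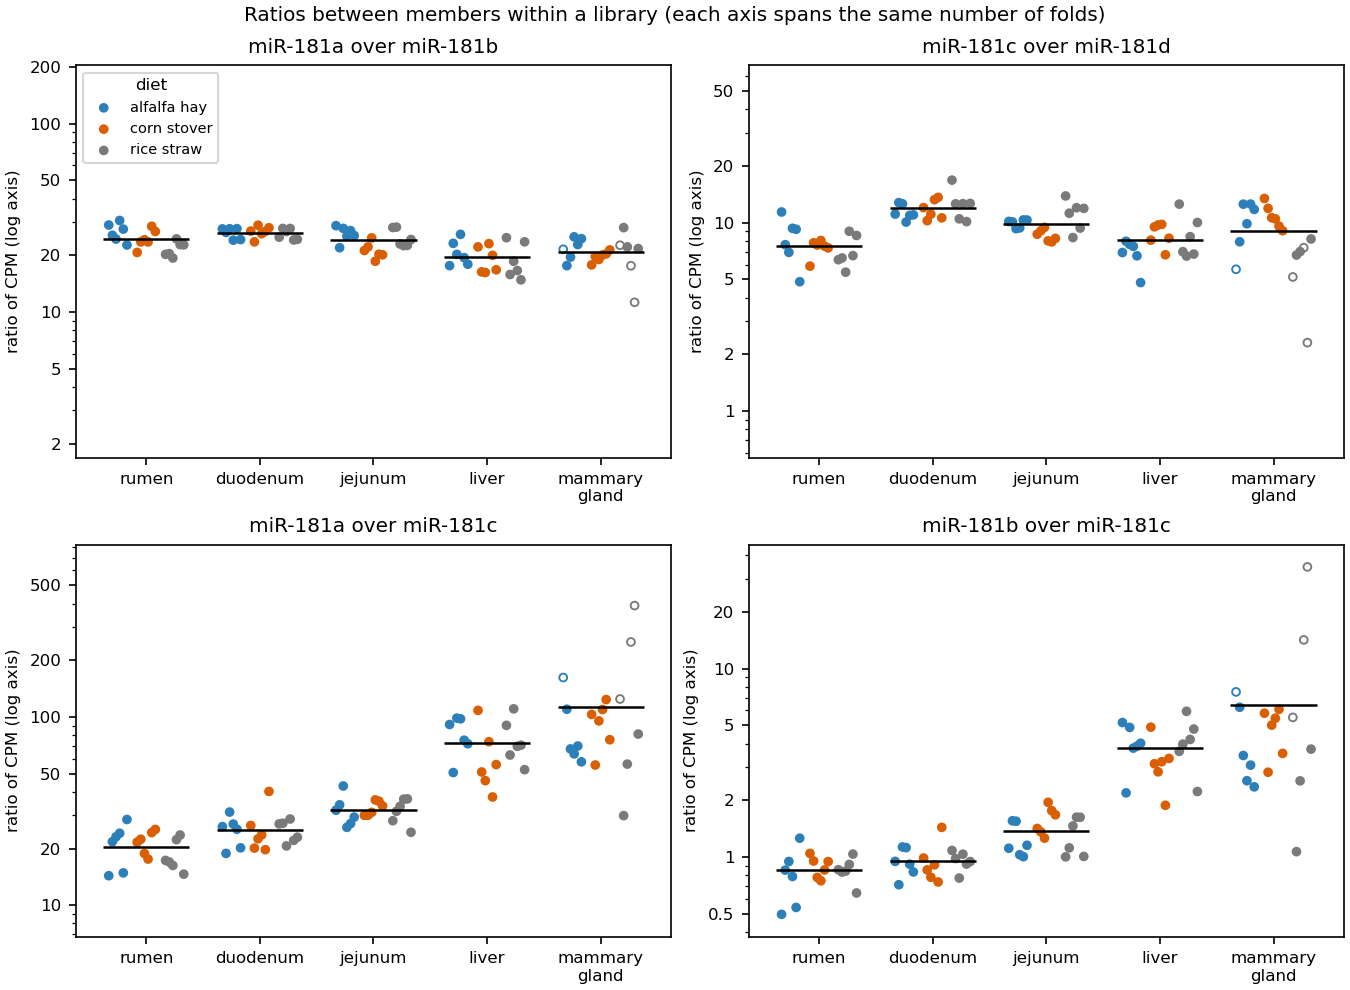
Ratio of CPM between 2 members within each library (vertical log axes spanning equal folds) by tissue and diet, with black lines for means over 18 libraries and open circles for the 4 mammary gland libraries that stood apart. The within-pair ratios, miR-181a over miR-181b (means 19.6 to 26.3) and miR-181c over miR-181d (means 7.58 to 11.9), cover a smaller range of folds, while miR-181a over miR-181c rises from a mean of 20.4 in rumen to 73.0 in liver and 113 in mammary gland.

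Jejunum was compared with duodenum, the segment of small intestine before it, in a fit of these 36 libraries with 331 miRNAs. miR-181a, miR-181b and miR-181d were higher in jejunum and miR-181c was not called. Of all miRNAs 30.8% were called in this comparison, and 16.3% were called and higher in jejunum. miR-181a rose by 0.39 (SE 0.084, adjusted p = 0.00045), and its mean CPM was 1.29 times that of duodenum. All 18 jejunum libraries lay above the duodenum mean of 11564 CPM and 12 of the 18 duodenum libraries lay under the lowest jejunum library, although the ranges overlapped. miR-181b rose by 0.53 (SE 0.093, adjusted p = 3.5e-05), with a mean CPM 1.43 times that of duodenum, and again all 18 jejunum libraries were above the duodenum mean. miR-181d rose by 0.29 (SE 0.076, adjusted p = 0.0038), with a mean CPM 1.23 times that of duodenum and 17 of 18 jejunum libraries above the duodenum mean of 39.1 CPM. For miR-181c the difference was 0.02 (SE 0.070, adjusted p = 0.88), with means of 464 ± 73.1 CPM in duodenum and 471 ± 85.2 CPM in jejunum (SD, n = 18), and 33 of the 36 libraries in the range shared by both. When the same contrast was taken from the fit of all 90 libraries, with the wider spread of the other tissues, the differences were unchanged, and the calls of miR-181a and miR-181d were lost (adjusted p = 0.0538 and 0.146).

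The members thus did not all move in step from duodenum to jejunum. Relative to miR-181a, miR-181c fell by 0.38 on the log2 scale (SE 0.089, adjusted p = 0.00048) and miR-181b rose by 0.14 (SE 0.057, adjusted p = 0.030). The ratio of miR-181d to miR-181a differed by -0.11 (SE 0.10, adjusted p = 0.36). Of all ratios to miR-181a 70.6% were called in this comparison, so a call against miR-181a is not particular to the members. Relative to miR-181c, its neighbour in the annotation, miR-181d rose by 0.27 (SE 0.071, adjusted p = 0.0038, background 30.6%).

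Marker miRNAs of other cell types also differed between the 2 segments, with 13 of 30 tested called, 4 higher and 9 lower in jejunum. All 3 intestinal epithelial miRNAs were lower in jejunum, with miR-192 at -0.42, miR-194 at -0.33 and miR-215 at -0.95 on the log2 scale, and so were 4 of 5 miRNAs of epithelium in general (the miR-200 family), with a median of -0.59. Of 4 neural and enteroendocrine miRNAs miR-375 was lower by -0.68 and miR-7 by -0.91. Among 8 leukocyte miRNAs 1 was called, miR-223 of granulocytes and monocytes, which was higher in jejunum by 1.15, and the summed list was 30713 CPM (18752 to 49140) in duodenum and 31719 CPM (20865 to 39174) in jejunum. The other markers called were higher in jejunum: miR-486 of red blood cells by 0.55, miR-133a of striated muscle by 0.41 and miR-143 of smooth muscle by 0.39. The other red blood cell miRNAs, miR-144 and miR-451, each differed by 0.11 and were not called (adjusted p = 0.72 and 0.71). The other striated muscle miRNA tested, miR-1, differed by -0.21 (adjusted p = 0.25). The other smooth muscle miRNA, miR-145, differed by 0.06 (adjusted p = 0.65), and neither endothelial miRNA was called. The part of these differences in the values of the family was not tested.

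**Figure D4:**
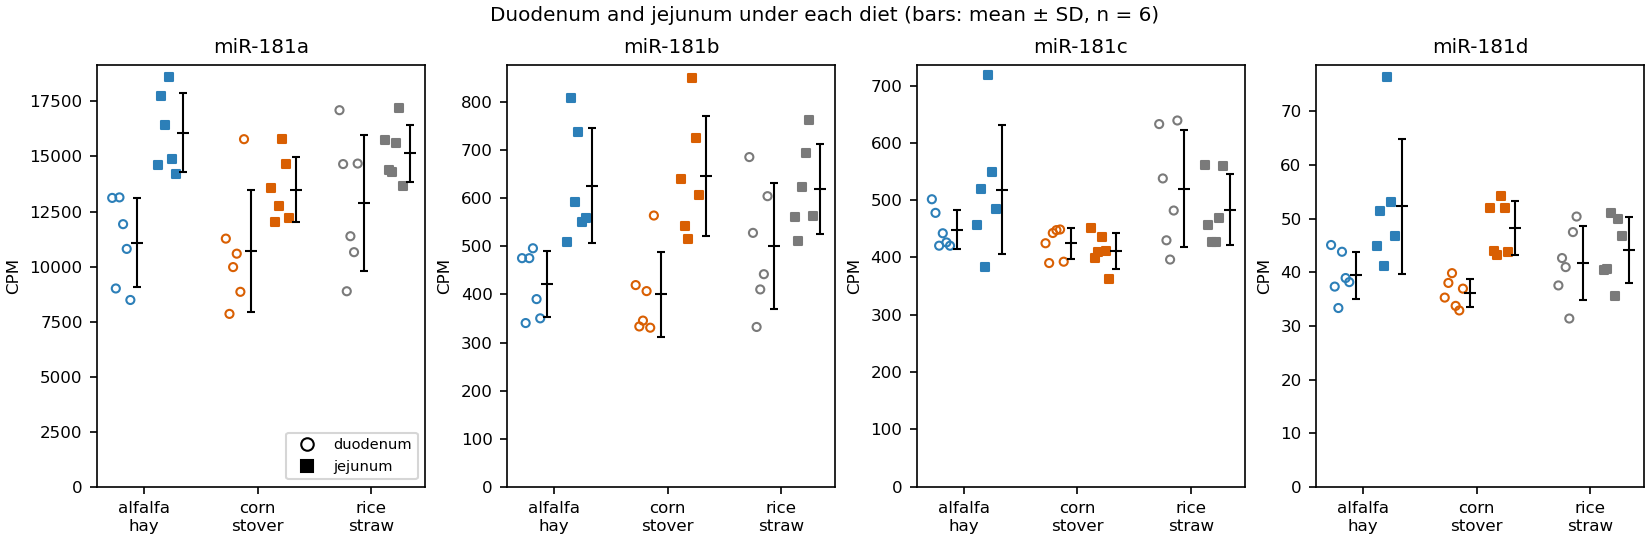
CPM (linear axis from 0) of each member in duodenum (open circles) and jejunum (filled squares) for 6 libraries per diet, with mean ± SD beside each group. Jejunum is above duodenum without overlap for miR-181a and miR-181b on alfalfa hay and for miR-181d on corn stover, while miR-181c overlaps on all 3 diets. The share of all miRNAs without overlap is not given.

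Within the diets the difference between jejunum and duodenum was clearest on alfalfa hay and corn stover. On alfalfa hay miR-181a ran from 8483 to 13142 CPM in duodenum and from 14219.6 to 18606 CPM in jejunum, with no overlap, and differed by 0.55 (SE 0.14, adjusted p = 0.0144). miR-181b did not overlap on this diet either, with 341 to 496 CPM in duodenum and 508 to 810 CPM in jejunum, and differed by 0.57 (SE 0.16, adjusted p = 0.0195). How many of all miRNAs had no overlap is not given, so the lack of overlap is a description of the members. miR-181d differed by 0.38 (adjusted p = 0.063) and miR-181c by 0.19 (adjusted p = 0.36), with 9.37% of all miRNAs called. The difference of miR-181d was called with edgeR (adjusted p = 0.0465) and among miRNAs with a mean of at least 10 CPM (0.0469). On corn stover miR-181b differed most, by 0.70 (SE 0.16, adjusted p = 0.00082), with miR-181d at 0.40 (adjusted p = 0.0140, no overlap between 32.9 to 39.8 CPM and 43.3 to 54.3 CPM), miR-181a at 0.36 (adjusted p = 0.0479) and miR-181c at -0.05 (adjusted p = 0.77), with 36.9% called. The call of miR-181a on corn stover was lost with upper-quartile scaling (0.28, adjusted p = 0.073) and with edgeR on recovered reads (0.33, adjusted p = 0.070).

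The markers differed by diet in number and kind. Of 30 tested 8 were called on alfalfa hay, 17 on corn stover and 3 on rice straw. On corn stover, unlike in the pooled comparison, 3 leukocyte miRNAs were lower in jejunum, miR-146a by -0.91, miR-146b by -1.52 and miR-155 by -0.49, while miR-223 was higher by 1.04. The endothelial miR-126-5p was lower there by -0.70, and the other arm, miR-126-3p, differed by -0.33 and was not called (adjusted p = 0.146). On this diet miR-31 of stratified epithelium was lower by -2.11, and miR-143 was higher by 0.81 with miR-145 at -0.20 (adjusted p = 0.37). The striated muscle miRNAs were called in opposite directions, miR-1 at -0.88 (adjusted p = 0.0025) and miR-133a at 0.58 (adjusted p = 0.0137). Their part in the differences of the family on single diets was not tested.

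On rice straw no member was called: miR-181a differed by 0.26 (adjusted p = 0.55), miR-181b by 0.33 (adjusted p = 0.42), miR-181d by 0.08 (adjusted p = 0.88) and miR-181c by -0.09 (adjusted p = 0.88), against 1.21% of all miRNAs. On this diet miR-181a ran from 8880 to 17102 CPM in duodenum and from 13646 to 17198 CPM in jejunum, and 8 of the 12 libraries lay in the shared range. A diet effect on the difference itself was not found. The F test of jejunum minus duodenum by diet gave an adjusted p of 0.58 for miR-181a, 0.51 for miR-181b, 0.45 for miR-181c and 0.37 for miR-181d, and 20.5% of all miRNAs were called in it.

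Diet was tested within each tissue by an F test over the 3 groups of 6. In 20 such tests, 4 members in 5 tissues, limma called none, and none had an unadjusted p under 0.05. edgeR on recovered reads called none either, again with none under 0.05 unadjusted. Among all miRNAs limma called 23.8% in jejunum, 3.72% in mammary gland, 1.49% in rumen, and 0% in both duodenum and liver. Where no miRNA was called, 36 in duodenum and 17 in liver had an unadjusted p under 0.05, and edgeR called 0 in both, with 34 and 24 under 0.05 unadjusted. The tissue by diet interaction of the 90 libraries called no member either (adjusted p between 0.234 and 0.489), and 45.7% of all miRNAs.

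The smallest diet p-values of the family came from jejunum. miR-181a had a median of 15673 CPM on alfalfa hay, 13156 CPM on corn stover and 15013 CPM on rice straw there, and an adjusted p of 0.14. miR-181c had medians of 502, 410.3 and 463 CPM in the same order (adjusted p = 0.145). The highest corn stover library of miR-181c, at 452 CPM, was under the median of alfalfa hay, but the ranges of all 3 diets overlapped. miR-181b gave means of 627 ± 119, 647 ± 124 and 619 ± 94.2 CPM (SD, n = 6), which lie well within the spread of each group. In rumen miR-181a averaged 7052 ± 1282 CPM on alfalfa hay, 7544 ± 1223 CPM on corn stover and 6510 ± 831 CPM on rice straw (SD, n = 6). These ranges of mean ± SD overlapped.

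Liver had its highest mean of miR-181a on rice straw, 8848 ± 2759 CPM, against 6443 ± 1940 CPM on corn stover and 7751 ± 1771 CPM on alfalfa hay (SD, n = 6), with an adjusted p of 0.85. miR-181b in liver was 476 ± 136 CPM on rice straw, 339 ± 85.9 CPM on corn stover and 373 ± 45.3 CPM on alfalfa hay (adjusted p = 0.85). The rice straw group held both the highest and the lowest liver library of miR-181b, at 639 and 239 CPM.

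In mammary gland the result turned on the libraries that stood apart. On corn stover, where no library stood apart, miR-181a ran from 16952 to 27323 CPM with a median of 23312 CPM, and miR-181b from 795 to 1538 CPM with a median of 1207 CPM. On alfalfa hay miR-181a had a median of 17079 CPM and ran from 15242 to 22680 CPM in replicates 2 to 6, with 5868 CPM in replicate 1. On rice straw the 6 libraries gave 6505, 10783, 18032, 50560, 34228 and 13329 CPM of miR-181a, a spread that covered the other diets. The F tests gave an adjusted p of 0.49 for miR-181a, 0.50 for miR-181b, 0.60 for miR-181c and 0.54 for miR-181d.

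Without the 4 libraries that stood apart, 5 alfalfa hay, 6 corn stover and 3 rice straw libraries of mammary gland remained. In these, diet was called for miR-181a (adjusted p = 0.034) and miR-181b (adjusted p = 0.030), and 18.7% of all miRNAs were called. Rice straw was then under corn stover by -0.72 (SE 0.19, adjusted p = 0.0115) for miR-181a and by -0.997 (SE 0.255, adjusted p = 0.00997) for miR-181b, in a comparison with 23.0% of all miRNAs called and a median difference of all miRNAs of -0.32. miR-181c differed by 0.09 (adjusted p = 0.83) and miR-181d by 0.64 (adjusted p = 0.12). The tissue by diet interaction was called for miR-181a (adjusted p = 0.0074) and miR-181b (adjusted p = 0.0026) in that setting, with 44.3% of all miRNAs called. This exclusion was chosen after the values were seen and leaves 3 rice straw libraries, and with all libraries neither member was called. Of the 3, replicates 2 and 3 had the next lowest correlations with the other mammary gland libraries, 0.965 and 0.964. Leaving out only the libraries under 2000000 reads kept replicate 4 on rice straw, with 2624975 reads. In that setting diet was called for neither miR-181a nor miR-181b in mammary gland.

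The libraries that stood apart also differed in marker miRNAs. The summed miRNAs of epithelium in general were 10598 and 11549 CPM in replicates 5 and 4 on rice straw, 25610 CPM in replicate 1 on alfalfa hay and 31854 CPM in replicate 1 on rice straw, under the range of 32549 to 67448 CPM in the other 14. The 8 leukocyte miRNAs summed to between 1482 and 2976 CPM in the 4, against 3910 to 11479 CPM in the 14, and the 3 red blood cell miRNAs to between 3251 and 4241 CPM against 1070 to 2938 CPM. The 2 arms of the endothelial miR-126 summed low in replicates 4 and 5 on rice straw, where miR-181a was highest, at 18410 and 10201 CPM against 21582 to 45777 CPM in the 14. In replicate 1 on alfalfa hay, where miR-181a was lowest, they summed to 56065 CPM, above that range, and in replicate 1 on rice straw to 43585 CPM, within it. The stratified epithelial miRNAs summed to 9101 CPM in replicate 4 on rice straw and to 991 and 879 CPM in replicate 1 on alfalfa hay and on rice straw, outside the range of 2107 to 6726 CPM in the 14, and to 3975 CPM in replicate 5 on rice straw. What these differences contribute to the level of the family was not tested.

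The ratio of miR-181d to miR-181c depended on diet differently in different tissues with all libraries in the fit. Its tissue by diet interaction had an adjusted p of 0.0124, with 13.9% of all ratios to miR-181c called. In mammary gland the ratio of miR-181c to miR-181d was 6.14 ± 2.12 on rice straw, against 10.9 ± 1.60 on corn stover and 10.1 ± 2.81 on alfalfa hay (SD, n = 6). In jejunum the order was another one, with 11.1 ± 1.99 on rice straw, 8.57 ± 0.613 on corn stover and 9.95 ± 0.472 on alfalfa hay. In liver alfalfa hay was lowest at 6.93 ± 1.14, and in rumen and duodenum the diet means lay within 7.10 to 8.25 and 11.4 to 12.6. Without the 4 libraries that stood apart the interaction was not called (adjusted p = 0.067). The lowest ratio of all, 2.31, was that of mammary gland replicate 5 on rice straw.

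The miRNAs most like each member over the 15 tissue and diet means were ranked by Pearson's r on log2(CPM + 1), among 234 miRNAs outside the family with a mean of at least 10 CPM. These r values describe 15 group means that share cows and libraries. miR-181a was closest to its neighbour miR-181b (r = 0.95), ahead of every other miRNA, followed by miR-363 (0.93), miR-190a (0.85) and miR-29c (0.85). miR-181b was closest to miR-181a and then to miR-363 (0.84), miR-34c (0.81) and miR-29c (0.76). With miR-181c and miR-181d the r of miR-181a was 0.27 and 0.16, and that of miR-181b 0.01 and -0.08.

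miR-181c was closest to miR-145 (r = 0.97), a miRNA of smooth muscle, then to miR-221 (0.94), miR-155 of activated lymphocytes (0.93) and its neighbour miR-181d (0.93). By ranks miR-221 was less like miR-181c (Spearman's rho 0.58). Against rumen, miR-221 was lower in duodenum and jejunum (-0.39 and -0.44 on the log2 scale), where miR-181c was higher (0.40 and 0.42). miR-181d was closest to miR-222 (0.94), miR-221 (0.94), its neighbour miR-181c (0.93) and miR-145 (0.90). miR-221 and miR-222 are a pair from one cluster with a shared seed. miR-145 averaged 2296 CPM in rumen, 2241 CPM in duodenum, 2384 CPM in jejunum, 586 CPM in liver and 1226 CPM in mammary gland, so that its drop in liver had the same shape as that of miR-181c. Without the 4 mammary gland libraries that stood apart, r between miR-181a and miR-181b was 0.95 and between miR-181c and miR-181d 0.93, and outside the family miR-363 was first for miR-181a, miR-145 for miR-181c and miR-221 for miR-181d. For miR-181b miR-497 (0.87) then came before miR-363.

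Within single tissues the members were tied less evenly. Over the 18 libraries of a tissue r between miR-181a and miR-181b was 0.97 in mammary gland, 0.96 in duodenum, 0.82 in liver, 0.63 in rumen and 0.62 in jejunum. Between miR-181c and miR-181d it was 0.75 in mammary gland, 0.65 in liver, 0.58 in jejunum, 0.54 in duodenum and 0.07 in rumen. Within some tissues r across the pairs was higher than that: in duodenum it was 0.63 between miR-181b and miR-181c and 0.55 between miR-181a and miR-181c, and in rumen 0.47 between miR-181b and miR-181d. The pairs seen over the tissue means were thus not seen among the libraries of every tissue. These are descriptions over libraries that also share depth and scaling, and miR-181d rests on few reads in the shallow ones. In mammary gland the 18 libraries include those that stood apart, which held both ends of the miR-181a range.

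**Figure D5:**
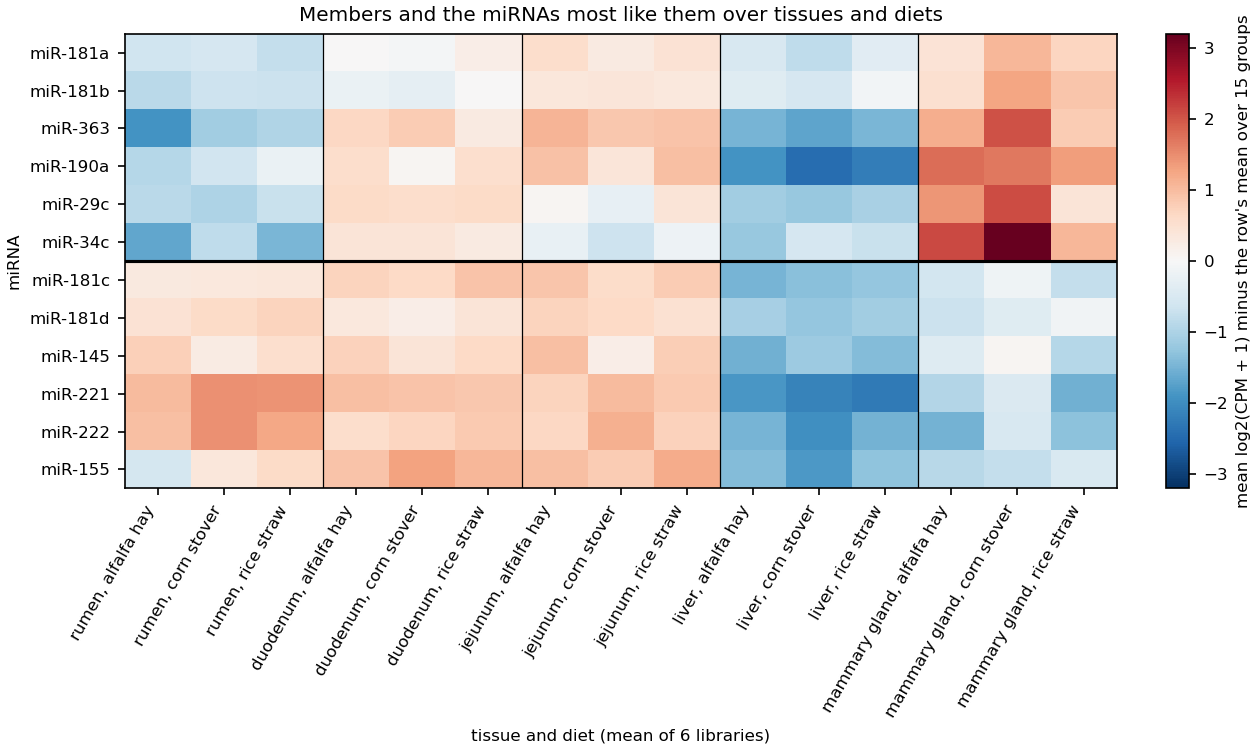
Mean log2(CPM + 1) of 6 libraries per tissue and diet, minus the mean of each row over the 15 groups (colour), for the members and the miRNAs named as most like them; columns are tissues and diets, and the black line separates the rows grouped with miR-181a and miR-181b from those grouped with miR-181c and miR-181d. The upper rows are highest in mammary gland, and the lower rows are lowest in liver and, for miR-145, at means of 586 CPM in liver against 2241 to 2384 CPM in rumen and intestine.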

How the data were processed

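Total RNA with an integrity number above 7.0 was made into small RNA libraries. The authors filtered reads with CASAVA 1.8, trimmed them with sRNAbench, aligned those longer than 15 nt to the bovine precursors of miRBase 22 (seed 20, 2 mismatches, up to 10 mappings) and deposited CPM, each miRNA's reads scaled to a common total of reads mapped to all annotated miRNAs. The genome build is not given in the sources used here. No genome or miRNA sequence was used here.

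All 30114 CPM values were whole multiples of 1 read (tolerance 0.001), which gave each library's depth. No 2 files were identical. Groups, diets and replicate numbers came from the labels, which name no separate extraction or batch.

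log2(CPM + 1) was fitted with limma 3.58.1 (R 4.3.3; eBayes with trend) on tissue by diet means, with Benjamini-Hochberg adjustment over all miRNAs of a fit. Tissues were compared in all 90 samples, jejunum and duodenum in 36, and diets within the 18 of a tissue. A miRNA entered when listed in each tissue of the fit and over 1 CPM in most samples (above 50%) of any of them. edgeR 4.0.16 (quasi-likelihood) on the recovered reads was an alternative. Other alternatives were pseudocounts of 0.1 and 5 CPM, upper-quartile and TMM scaling, 2 filters, a replicate block, tissue alone in the model, medians, and leaving out libraries under 2000000 reads or the 4 mammary gland libraries that stood apart. On simulated data with 60 of 289 miRNAs changed by 1 on the log2 scale, limma recovered 60 between jejunum and duodenum, 58 between diets in jejunum and 14 in mammary gland.

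The text names the 4 members, the 3 miRNAs most like each, and markers from fixed lists. The members, lists and tests were chosen with earlier results of these data known. Tables and figures used Python 3.11.15, pandas 2.3.3, numpy 2.4.6 and matplotlib 3.10.9.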

Additional observations from a re-analysis of the deposited data

Results flagged for a closer look

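In 60 groups of 6 libraries (4 members, 15 groups) 3 held a library far from the other 5, by a test on gaps that chance alone sets off in about 1 of 20 groups. miR-181c was 476 CPM in rumen replicate 6 on rice straw, against 319 to 359 CPM in the others. miR-181d was 76.4 CPM in jejunum replicate 4 on alfalfa hay, against 41.1 to 53.0 CPM. In liver replicate 2 on rice straw miR-181d was 22.9 CPM, against 10.7 to 14.03 CPM.

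The ratio of miR-181d to miR-181c depended on diet differently in different tissues, by the tissue by diet interaction of limma (adjusted p = 0.0124 with all 90 libraries, 0.067 without the 4 mammary gland libraries that stood apart).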

How the results depend on the processing

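Of the 440 repeats of the 40 member differences between tissues 422 kept their call. The miR-181b difference between liver and duodenum was 0.358 with upper-quartile scaling, opposite to CPM. In the fit of all 90 libraries jejunum minus duodenum was 0.392 for miR-181a and 0.287 for miR-181d, no longer called, with 33 miRNAs called instead of 102 and an SE of 0.14 instead of 0.084 for miR-181a. Numbers of miRNAs called moved as follows: jejunum minus duodenum on alfalfa hay 54 with the replicate block against 31, and on rice straw 2 with upper-quartile and 7 with TMM scaling, against 4; diets in rumen 8 with a mean of at least 10 CPM and 3 with the block, against 5. Diets in mammary gland gave 12 calls, 0 with a pseudocount of 0.1 CPM or edgeR (89 and 77 with an unadjusted p under 0.05), 19 with 5 CPM, 55 with the block, 38 without the libraries under 2000000 reads and 61 without the 4 that stood apart, an alternative chosen after seeing the data; the cause was not tested. For diets within a tissue the block joined equal replicate numbers on different diets. Those libraries come from different cows, so in the diet tests the block is not a pairing by animal. The miR-181d differences of diet in mammary gland (adjusted p = 0.041) and of tissue by diet (6.0e-04 and 0.0074) were called with upper-quartile and, for the latter, TMM scaling.

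The replicate numbers were not used as pairs. Same-numbered jejunum and duodenum libraries had a median correlation of deviations of 0.178, over 0.1 in 14 of 18 pairs, against -0.023 for other pairs, and 12 of 18 jejunum libraries correlated best with their own number. With the replicate block jejunum minus duodenum called 109 miRNAs; miR-181a was 0.392 and miR-181d 0.287, both called. The block also called miR-181d between duodenum and rumen (-0.264, adjusted p = 0.0414) and between jejunum and duodenum on alfalfa hay (0.375, adjusted p = 0.0406).

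Of 200 repeats of the member diet tests 3 were called. Depth limits miR-181d most, with 6 reads in the shallowest library.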
